A study of Mus musculus with 9 samples.

Results

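The genes described here encode secreted and membrane-bound proteases that cut the extracellular matrix, and the inhibitors of those proteases. The members were all rows of both deposited tables whose gene symbol was Mmp, Timp or Adamts with a number: 46 of the 57010 Ensembl gene identifiers, of which 23 were Mmp genes, 4 Timp genes and 19 Adamts genes. Matrix metalloproteinases (MMPs) are zinc enzymes made as inactive precursors that degrade collagens, elastin and other matrix and surface proteins, and in the lung they come from epithelium, fibroblasts and leukocytes. The tissue inhibitors of metalloproteinases (TIMPs) block their active sites. ADAMTS enzymes are secreted relatives with thrombospondin repeats that process procollagens, cut proteoglycans such as versican, or act on fibrillin microfibrils.

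RNA had been sequenced from 9 mouse libraries in 3 groups of 3: normal lung (Normal), small cell lung cancer, a neuroendocrine lung tumour (SCLC), and the same cancer after an agent named only GSK (GSK). The series' design text calls all of them organoids, which are cultures grown in a gel from tissue cells, while the sample labels give tissue and cell type only as normal lung or SCLC. The sources used here do not state genotype, strain, age or number of animals, how the tumours arose, what GSK is, or its dose and duration. Nothing in the labels says whether the 3 libraries of a group came from separate animals or cultures, so p-values may measure technical spread only. The SCLC libraries served in both comparisons, against Normal and as the control of GSK, so the fold changes of the 2 comparisons are not independent and are only set side by side. Each of the authors' deposited tables held, per gene, a mean of normalized counts over 6 libraries and a log2 fold change with its standard error (SE). Levels below are group means of normalized counts implied by those values for 3 libraries a group. No value of a single library was analysed here, so the spread between replicates enters only through the authors' SE. A member is called higher or lower where the authors' adjusted p is under 0.05. Where the lower group was at 0, a fold is a lower bound against a floor of 3 counts per group, a mean of 1. With 1 to 3 implied counts in the lower group, a 95% counting interval is given. These bounds and intervals cover counting error only.

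The makeup of the 3 groups differed in more than tumour status, by markers of other cell types. The summed level of 6 neuroendocrine markers was 37.6 in Normal, 129659 in SCLC and 60465 in GSK. In the libraries labelled GSK, Ptprc, the pan-leukocyte surface protein CD45, had an implied mean of 12562, against 144 in Normal and 0.0812 in SCLC. In the authors' deposited table, 21.6% of all genes tested were called higher in GSK than in SCLC. Of the markers, all 9 fibroblast, 7 of 7 macrophage, 6 of 8 neutrophil and 6 of 6 endothelial genes were called higher. Their summed levels in Normal, SCLC and GSK were 9677, 28.7 and 16129 for fibroblasts, 4989, 119 and 16091 for macrophages, 520.2, 17.8 and 31474 for neutrophils, and 131, 53.2 and 16429 for endothelium. In SCLC the markers Marco, Itgam, Adgre1, Ly6g, Csf3r, Cxcr2, S100a8, S100a9, Tie1 and Emcn were at or near 0. Other markers of the same lists were not, with Mrc1 at 59.7, Cd68 at 51.3, Pecam1 at 36.2, Retnlg at 17.2 and Kdr at 12.7. Normal carried lung epithelial markers, and the authors' deposited table had all 6 alveolar type II markers lower in SCLC. The labels name no such cells in the GSK group, and the plot of marker lists shows these 4 lists highest in GSK. Epithelial markers were also called higher in GSK than in SCLC in the authors' deposited table, with 2 of 3 club, 3 of 3 ciliated, 4 of 5 alveolar type II, 4 of 5 alveolar type I and 2 of 3 basal genes. The other alveolar type I gene, Aqp5, was called lower there, from 1483 to 61.4 (-4.59 ± 0.63). The alveolar type II gene Abca3, with 4511 in the SCLC control and 2875 in GSK, was not called. Summed levels of these lists in the SCLC control and GSK were 213 and 6298 for club and 158 and 807 for ciliated genes. They were 5014 and 6521 for alveolar type II, 1620 and 2703 for alveolar type I, and 0.307 and 357 for basal genes. Their part in each result below was not tested. In bulk RNA, fewer cells of a type and less RNA per cell cannot be told apart.

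**Figure D1:**
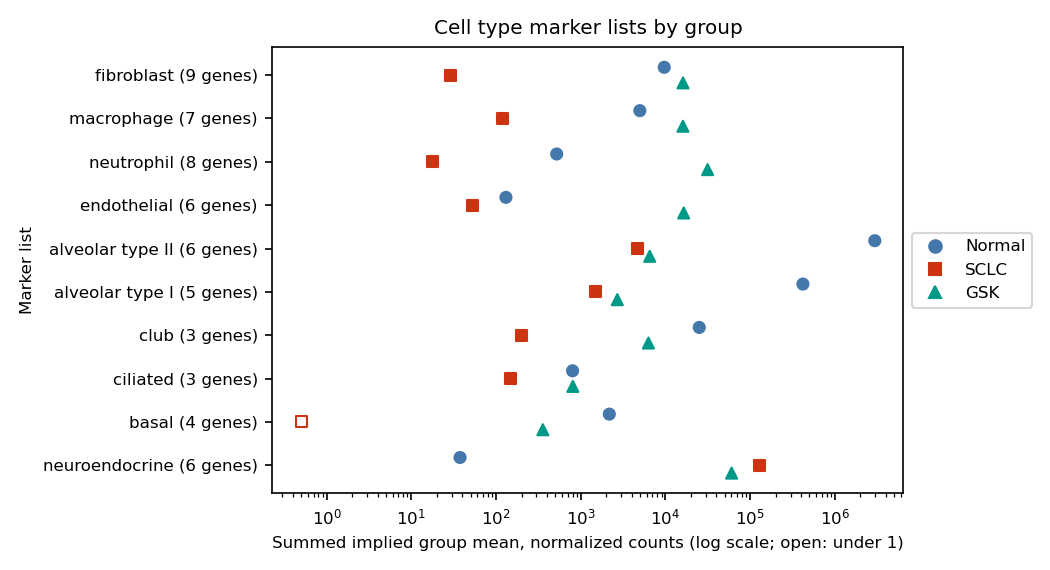
Summed implied group means of 10 cell type marker lists (x axis, normalized counts, log scale) in Normal (circles), SCLC (squares) and GSK (triangles), with no error bars because no library values were analysed. The fibroblast, macrophage, neutrophil and endothelial lists are lowest in SCLC and highest in GSK, and the neuroendocrine list is lowest in Normal.

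Of the 23 Mmp genes, 10 lie side by side on mouse chromosome 9, in the order Mmp13, Mmp12, Mmp1b, Mmp3, Mmp1a, Mmp10, Mmp8, Mmp27, Mmp20 and Mmp7 in RefSeq, with no other protein-coding gene between the ends of the array. Implied means in Normal ranged from 48.2 for Mmp13 to 1237 for Mmp3 among the 5 genes of the array that were called lower in SCLC, where 25.1% of all genes tested were called lower. In GSK 6 of the 10 were called higher, against 21.6% of all genes tested. Mmp1a, Mmp1b and Mmp20 stayed under a mean of 1 in each group and had no adjusted p in either comparison. Mmp27 had none in SCLC against Normal. The shares of all genes cover only genes with an adjusted p. The promoters of the array are shown because most of them share a sequence feature that the choice of members did not use. The motif TGANTCA, where N is any base, was searched in RefSeq promoter windows of 250 bases before to 50 after each annotated start. It includes the binding sequence of AP-1 (dimers of the FOS and JUN families, which are known activators of several MMP genes) but is wider. It reads the same on both strands. The table held 35 windows of 32 members in build GRCm38.p6. The motif occurred in 8 of the 12 windows of the array, 1 for each of 8 genes, and in 0 of the 23 windows of other members, against 7.81% of all 32851 windows. The matches in the array were TGAGTCA or TGACTCA, except TGAATCA in Mmp20. A TATAAA box on either strand occurred in 9 of the 12 windows, and in 13.6% of all windows. A further motif that was searched, AGGAAG on either strand, occurred in 8 of the 12 windows of the array. It occurred in 8 of the 23 windows of other members and in 35.4% of all windows. Windows of neighbouring genes of the same family need not be independent, and no motif count was tested.

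The 250 bases before the start are printed for 8 of these genes, 5′ to 3′ on the plus strand, with TGANTCA and TATAAA matches that lie wholly before the start in capitals. Mmp13, Mmp12, Mmp3 and Mmp10 hold the AP-1 motif and were called higher in GSK, Mmp8 and Mmp27 were called higher without it in this window. Mmp7 holds it and was not called. It also lies in Mmp1a, and in Mmp1b and Mmp20, which are not printed, and these genes had no adjusted p in GSK against SCLC. In that comparison Mmp1a and Mmp1b had no counts, and Mmp20 had implied means of 0.0924 in SCLC and 0.783 in GSK. These genes were too low to be called in either direction. Mmp7 was low as well, at 5.94 in SCLC and 0.361 in GSK. Whether the motif goes with a rise in GSK was not tested. For Mmp12 the second of 2 annotated starts is shown, since the window of the first holds no match. The printed stretches are chr9:7272264-7272513 (Mmp13), chr9:7347124-7347373 (Mmp12), chr9:7445572-7445821 (Mmp3), chr9:7502092-7502341 (Mmp10), chr9:7558179-7558428 (Mmp8), chr9:7571146-7571395 (Mmp27), chr9:7691840-7692089 (Mmp7) and chr9:7463891-7464140 (Mmp1a), all in GRCm38.p6. In the order printed, the AP-1 motif began 35, 44, 46, 63, 63 and 73 bases before the start in Mmp13, Mmp12, Mmp3, Mmp10, Mmp7 and Mmp1a. A match is a description of the letters, not a bound site.
Mmp13: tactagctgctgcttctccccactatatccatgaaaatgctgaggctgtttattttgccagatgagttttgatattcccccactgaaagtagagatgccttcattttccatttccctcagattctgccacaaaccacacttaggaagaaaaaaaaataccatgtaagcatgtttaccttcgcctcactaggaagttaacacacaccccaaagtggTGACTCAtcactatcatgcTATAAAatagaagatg
Mmp12: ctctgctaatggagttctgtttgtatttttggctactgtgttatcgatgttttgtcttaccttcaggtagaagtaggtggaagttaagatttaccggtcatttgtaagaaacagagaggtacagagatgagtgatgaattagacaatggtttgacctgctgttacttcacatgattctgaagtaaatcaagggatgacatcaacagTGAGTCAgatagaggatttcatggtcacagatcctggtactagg
Mmp3: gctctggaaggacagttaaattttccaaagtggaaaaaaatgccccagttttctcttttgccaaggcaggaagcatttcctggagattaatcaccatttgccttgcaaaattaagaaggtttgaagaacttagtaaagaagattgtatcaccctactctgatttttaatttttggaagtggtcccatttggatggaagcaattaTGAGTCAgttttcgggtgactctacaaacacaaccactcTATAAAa
Mmp10: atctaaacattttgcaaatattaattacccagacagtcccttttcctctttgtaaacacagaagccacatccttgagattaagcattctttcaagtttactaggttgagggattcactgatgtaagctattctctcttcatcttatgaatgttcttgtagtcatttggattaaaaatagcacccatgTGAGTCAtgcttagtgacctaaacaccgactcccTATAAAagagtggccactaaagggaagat
Mmp8: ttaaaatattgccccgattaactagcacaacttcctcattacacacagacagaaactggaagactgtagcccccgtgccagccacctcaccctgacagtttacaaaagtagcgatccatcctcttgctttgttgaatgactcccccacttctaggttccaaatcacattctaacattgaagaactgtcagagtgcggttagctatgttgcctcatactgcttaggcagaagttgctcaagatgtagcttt
Mmp27: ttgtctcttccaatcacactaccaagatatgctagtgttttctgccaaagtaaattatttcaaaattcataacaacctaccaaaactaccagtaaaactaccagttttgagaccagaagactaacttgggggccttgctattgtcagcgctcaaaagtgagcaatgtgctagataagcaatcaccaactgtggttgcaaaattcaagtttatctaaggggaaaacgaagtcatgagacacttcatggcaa
Mmp7: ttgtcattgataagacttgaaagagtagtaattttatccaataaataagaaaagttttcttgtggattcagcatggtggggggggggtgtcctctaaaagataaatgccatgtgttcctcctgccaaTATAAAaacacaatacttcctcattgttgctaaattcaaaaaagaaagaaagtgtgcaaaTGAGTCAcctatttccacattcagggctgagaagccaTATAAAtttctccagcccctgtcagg
Mmp1a: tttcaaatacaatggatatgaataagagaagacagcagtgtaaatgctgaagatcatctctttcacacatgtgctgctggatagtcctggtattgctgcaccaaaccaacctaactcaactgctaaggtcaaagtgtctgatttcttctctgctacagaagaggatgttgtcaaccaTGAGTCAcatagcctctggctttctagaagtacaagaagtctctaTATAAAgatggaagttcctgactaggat

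**Figure D2:**
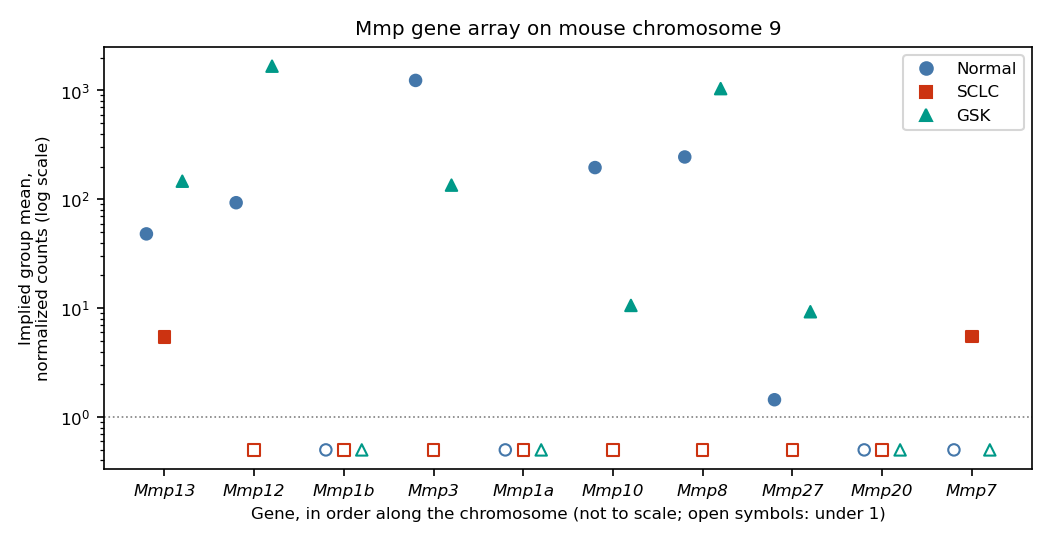
Implied group means (y axis, normalized counts, log scale) of the 10 Mmp genes of the chromosome 9 array in gene order (x axis, not to scale) in Normal (circles), SCLC (squares) and GSK (triangles), with open symbols for means under 1 and no error bars because no library values were analysed. Mmp12 at 1672 and Mmp8 at 1040 are highest in GSK, Mmp3 at 1237 and Mmp10 at 196 are highest in Normal, and Mmp7 is above 1 in SCLC only.

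Relative to Normal, SCLC organoids had less mRNA of most secreted MMPs and of the 3 main TIMPs, and more of a group of membrane-anchored MMPs. Of 46 members, 41 had an adjusted p in the authors' deposited table: 22 were lower in SCLC, 7 were higher and 12 were not called. Mmp1b and Mmp20 had no counts in this comparison, and Mmp1a, Mmp27 and Adamts16 were too low for an adjusted p. Called members were 70.7% of those tested, against 50.4% of all 24719 genes tested in that table, of which 25.3% were called higher and 25.1% called lower. The median log2 fold change was -1.87 over the 41 members and 0.10 over all genes tested.

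Among the collagenases, stromelysins and gelatinases, all 7 members with an adjusted p were lower in SCLC. The stromelysin gene Mmp3, whose product also activates other pro-MMPs, had an implied mean of 1237 in Normal and 0.0813 in SCLC, which stands for 0, and was at least 1237-fold lower (adjusted p = 1.85e-25, the authors' deposited table). Mmp8, the neutrophil collagenase, went from 245 to about 0, at least 245-fold lower (adjusted p = 1.36e-18, the authors' deposited table). Mmp10, the second stromelysin, went from 196 to about 0 (at least 196-fold lower, adjusted p = 2.9e-14, the authors' deposited table). No transcript of these 3 genes was detectable in SCLC at this depth. The gelatinase gene Mmp9 had implied means of 1304 and 9.80, a log2 fold change of -7.06 ± 0.52 (SE; adjusted p = 8.22e-40, the authors' deposited table). Its relative Mmp2 had 736 and 9.46, with -6.28 ± 0.89 (adjusted p = 1.24e-11, the authors' deposited table). Mmp11, which is activated inside the cell by furin and is known from tumour stroma, was still at 347 in SCLC against 3943 in Normal (-3.50 ± 0.56, the authors' deposited table). Mmp13, a collagenase of bone and cartilage, had 48.2 in Normal and 5.45 in SCLC (-3.15 ± 0.75, the authors' deposited table). Mmp12, the macrophage elastase, fell from 93.2 to 0.414, a 225-fold difference with a counting interval of 50.2 to 11042.

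The MMPs held at the cell surface went in different directions. Mmp14 encodes MT1-MMP, the surface enzyme that activates pro-MMP2, and fell from 4398 to 26.1 (-7.39 ± 0.47, adjusted p = 1.6e-54, the authors' deposited table). Mmp24 encodes MT5-MMP, known from the nervous system, and rose from 5.95 to 4610 (9.60 ± 0.63, adjusted p = 5.75e-51, the authors' deposited table). Mmp16 rose from 2.96 to 118 (5.32 ± 0.94) and the GPI-anchored Mmp17 from 34.5 to 388 (3.49 ± 0.61), both in the authors' deposited table. Mmp15, or MT2-MMP, was abundant in both groups, at 2738 in Normal and 5329 in SCLC (0.96 ± 0.31, adjusted p = 0.00463, the authors' deposited table). So of 5 membrane-anchored MMPs that were called, 4 were higher in SCLC and Mmp14 was lower. Mmp25, a GPI-anchored enzyme of leukocytes, had 5.10 and 3.03 (-0.75 ± 1.66, not called in the authors' deposited table), which leaves its direction unresolved at this depth. Part of the Mmp24 exon sequence, 13.6% of its bases, lies opposite exons of BC029722 in GENCODE M21, and no source used here says whether counting used strand.

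Of the remaining MMPs, 2 fell. Mmp19, expressed by macrophages and epithelium, fell from 329 to 2.45 (-7.07 ± 0.55, adjusted p = 5.31e-36, the authors' deposited table). It shares 22.3% of its exon bases with Tmem198b on the opposite strand. Mmp28, also called epilysin, fell from 21.6 to 0.417, a 51.8-fold difference with a counting interval of 11.6 to 2564. Mmp23 had 184 and 176, and its 95% interval of the log2 difference, -0.92 to 0.79 in the authors' deposited table, allowed a change of either sign. Mmp7, or matrilysin, an epithelial enzyme, had 0.385 in Normal and 5.52 in SCLC and was not called (adjusted p = 0.375, the authors' deposited table). Mmp21 had 0.791 and 3.23 and was not called either.

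Of the inhibitors, 3 of 4 fell, where 25.1% of all genes tested were called lower. Timp3, which binds to the matrix and also inhibits ADAM and ADAMTS enzymes, had an implied mean of 79765 in Normal and 205 in SCLC (-8.60 ± 0.68, adjusted p = 2.4e-35, the authors' deposited table). Timp2, which takes part in activation of pro-MMP2 at MT1-MMP as well as in inhibition, went from 24140 to 1099 (-4.46 ± 0.56, adjusted p = 2.93e-14, the authors' deposited table). Timp1 went from 254 to 3.93 (-6.02 ± 0.66, adjusted p = 1.27e-18, the authors' deposited table). Timp4 was low in both groups, at 2.93 and 8.90 (1.61 ± 1.29, not called in the authors' deposited table). The 3 inhibitor genes that fell had at least 254 normalized counts in Normal, and the one that was not called had 2.93 there.

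**Figure D3:**
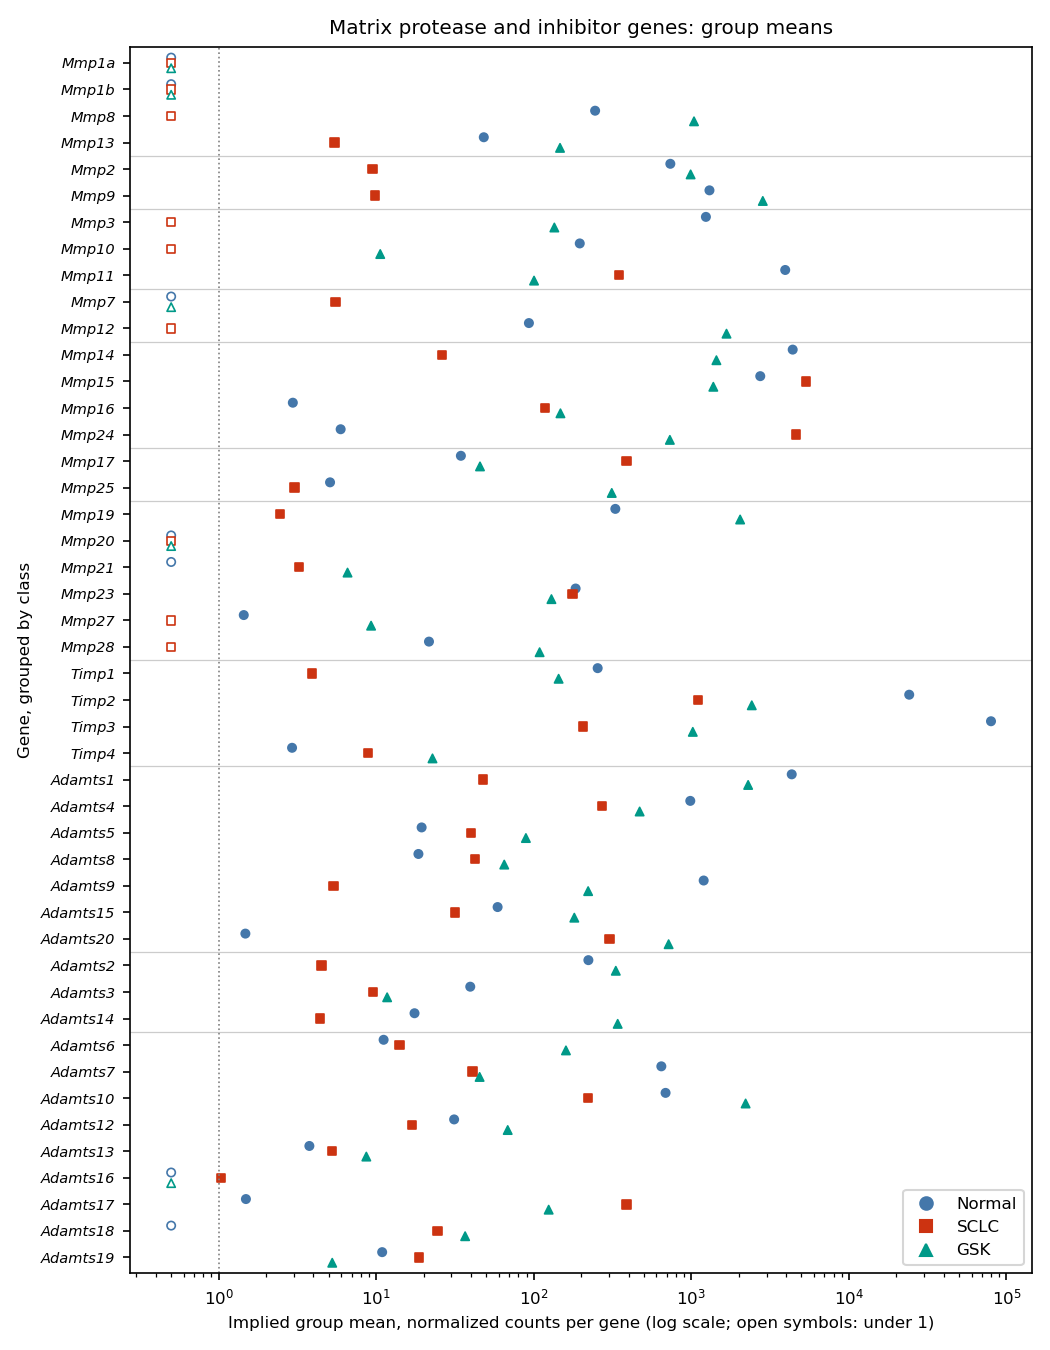
Implied group means of the 46 members (x axis, normalized counts, log scale) in Normal (circles), SCLC (squares) and GSK (triangles), grouped by class, with open symbols at the left edge for means under 1 and no error bars because no library values were analysed. Timp3 reaches 79765 in Normal, Mmp24 is highest in SCLC, and Mmp8, Mmp12 and Mmp19 are highest in GSK.

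Among ADAMTS genes, 8 of 18 with an adjusted p were lower in SCLC, 3 were higher and 7 were not called. The 61.1% called lay near the 50.4% of all genes tested. Adamts9, a versican-cleaving enzyme, fell from 1198 to 5.37 (-7.80 ± 0.44, adjusted p = 2.33e-68, the authors' deposited table). Adamts1, another proteoglycanase, had 4337 in Normal and 47.8 in SCLC, but with a wide error (-6.50 ± 2.11, adjusted p = 0.00513, the authors' deposited table). An SE of 2.11 is the largest among called members in this comparison, so its size is poorly fixed. Adamts4, an aggrecanase, fell from 985 to 270 (-1.87 ± 0.67, the authors' deposited table). Adamts5, Adamts8 and Adamts15, of the same class, had log2 fold changes between -0.89 and 1.19 and were not called in the authors' deposited table. All 3 procollagen N-proteinases, which trim fibrillar procollagens, were lower. Adamts2 fell from 222 to 4.49 (-5.63 ± 0.97) and Adamts3 from 39.5 to 9.57 (-2.05 ± 0.68), both in the authors' deposited table. Adamts14 passed narrowly at 17.5 and 4.40 (-1.99 ± 0.88, adjusted p = 0.0482, the authors' deposited table), and this call was lost when scaled to total counts (adjusted p = 0.0603) or with no filter on low values (adjusted p = 0.0653). Adamts7, which cuts cartilage oligomeric matrix protein, fell from 645 to 40.8 (-3.98 ± 0.70) and Adamts10, which binds fibrillin-1, from 686 to 221 (-1.64 ± 0.47), both in the authors' deposited table.

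The 3 ADAMTS genes that rose were nearly absent from Normal. Adamts17, which is linked to microfibrils, went from 1.49 to 389 (8.03 ± 1.09, adjusted p = 1.75e-12, the authors' deposited table). Adamts20, known for its role in the migration of pigment cell precursors, went from 1.48 to 302 (7.68 ± 1.18, adjusted p = 5.42e-10, the authors' deposited table). Adamts18 went from 0.404 to 24.5, a 60.6-fold difference with a counting interval of 13.2 to 2900 (adjusted p = 0.00184, the authors' deposited table). Adamts6, Adamts12, Adamts13 and Adamts19 had log2 fold changes from -0.89 to 0.78 and were not called in the authors' deposited table.

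**Figure D4:**
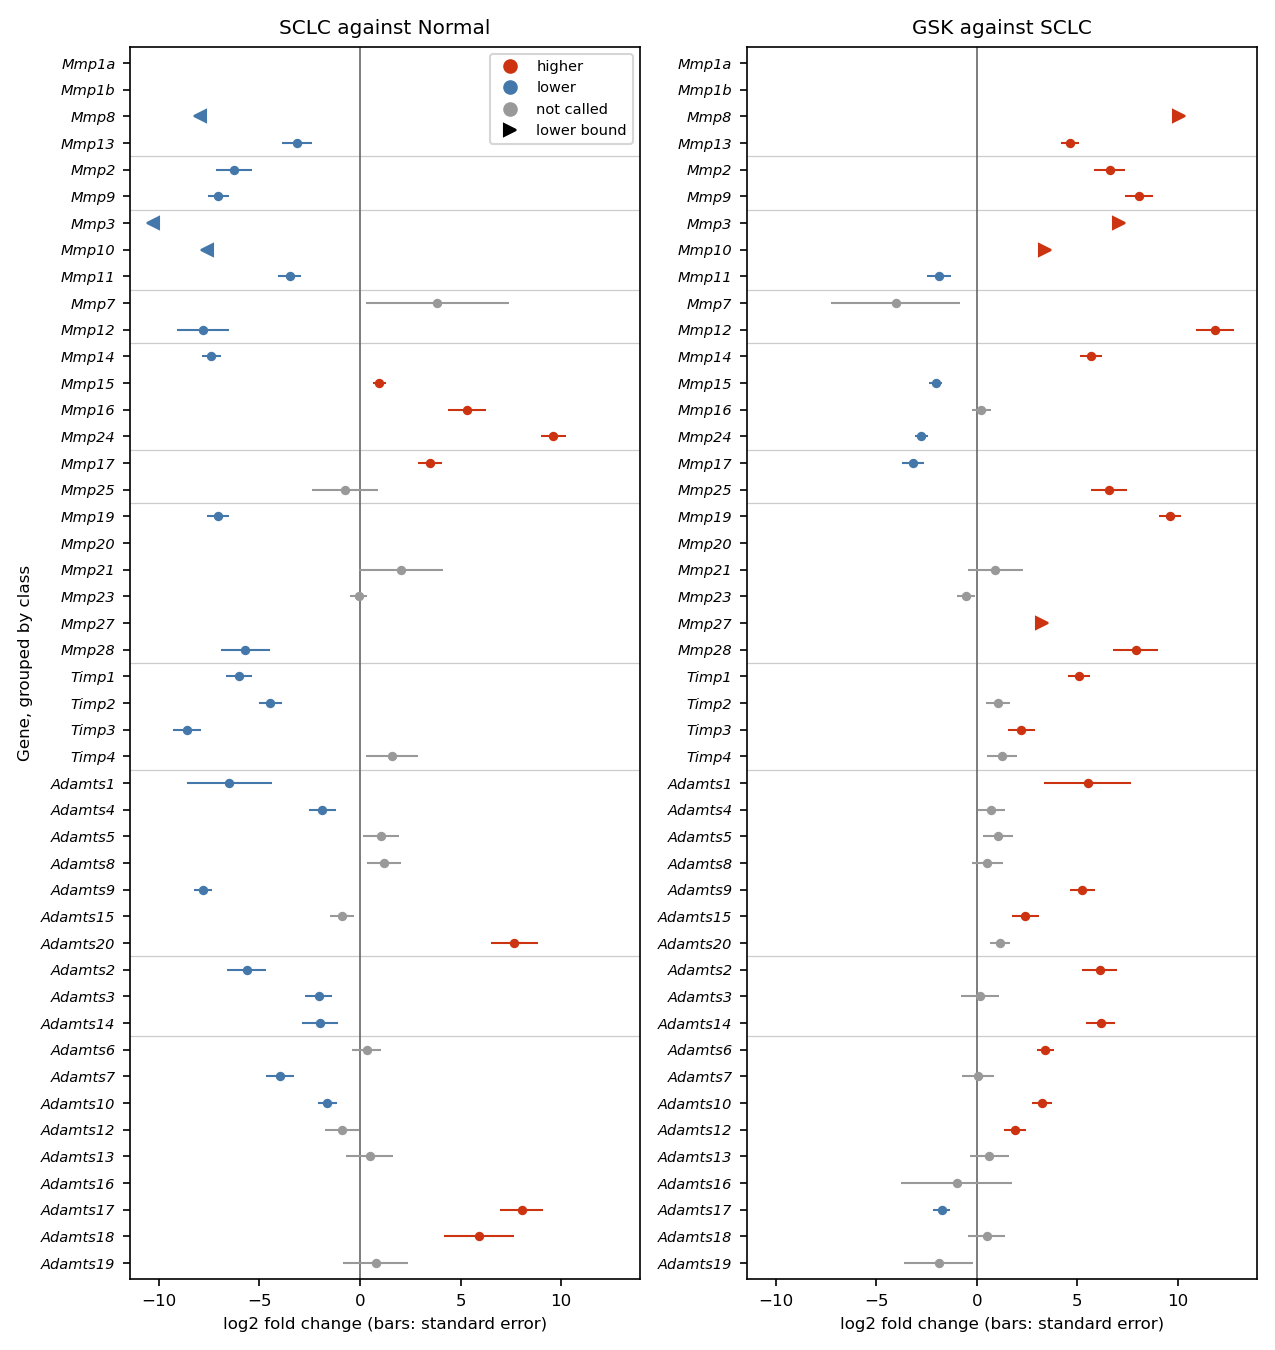
The log2 fold changes of members with an adjusted p (x axis; bars are the authors' SE) for SCLC against Normal (left) and GSK against SCLC (right), red where called higher, blue where called lower, grey where not called, and arrowheads for lower bounds. Timp1, Timp2, Timp3 and the collagenases, stromelysins and gelatinases lie left of 0 in the left panel, and Mmp24, Mmp15, Mmp17 and Mmp11 lie left of 0 in the right panel.

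Relative to SCLC, the GSK libraries had more mRNA of most secreted MMPs and less of the membrane-anchored MMPs Mmp15, Mmp17 and Mmp24. An adjusted p was available for 43 of the 46 members in the authors' deposited table: 22 were higher in GSK, 5 were lower and 16 were not called. Mmp1a and Mmp1b had no counts and Mmp20 was too low for an adjusted p. The called members were 62.8% of those tested, against 37.1% of all 28376 genes tested there, of which 21.6% were called higher and 15.5% called lower. The median log2 fold change was 1.90 over the 43 members and 0.24 over all genes tested. The authors' scaling placed genes with a mean of at least 100 at a median of -0.25, and equal totals would add 0.51 to every log2 fold change in this comparison (0.18 and 0.09 in SCLC against Normal). With that scaling 8738 of all genes were called higher and 1970 lower, in place of 6129 and 4404.

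Several MMPs that leukocytes can express were higher in GSK. Without regard to exon length, Mmp9, Mmp19 and Mmp12 had the largest implied means of the Mmp genes there. Mmp8 had about 0 in SCLC and 1040 in GSK, at least 1040-fold higher (adjusted p = 4.39e-21, the authors' deposited table), and 245 in Normal. Mmp12 went from 0.462 to 1672, a 3617-fold difference with a counting interval of 900.4 to 198146 (adjusted p = 4.89e-33, the authors' deposited table). Mmp9 went from 10.7 to 2842 (8.06 ± 0.69, adjusted p = 2.17e-29, the authors' deposited table). Mmp25, the leukocyte enzyme, went from 3.29 to 313 (6.57 ± 0.88, adjusted p = 1.84e-12, the authors' deposited table), whereas Normal had 5.10. Mmp19 went from 2.64 to 2040 (9.60 ± 0.56, adjusted p = 5.84e-62, the authors' deposited table). These genes moved with the neutrophil and macrophage lists, whose summed levels were 31474 and 16091 in GSK against 19.2 and 129 in its SCLC control. The fibroblast and endothelial lists rose as well, from 30.9 to 16129 and from 56.8 to 16429. The part of any of these cells was not tested.

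The gelatinase gene Mmp2 and the surface enzyme gene Mmp14 also rose. Mmp2 rose from 10.2 to 990 (6.60 ± 0.78) and Mmp14 from 28.2 to 1443 (5.68 ± 0.54), both in the authors' deposited table. The collagenase gene Mmp13 rose from 5.88 to 147 (4.64 ± 0.44, adjusted p = 8.47e-24, the authors' deposited table). Of the procollagen N-proteinases, Adamts2 rose from 4.79 to 332 (6.12 ± 0.87) and Adamts14 from 4.79 to 341 (6.15 ± 0.73), and Adamts3 had 10.5 and 11.7 and was not called, all in the authors' deposited table. The fibroblast markers moved with them: their summed level was 30.9 in SCLC and 16129 in GSK, and their part was not tested. Mmp3 had about 0 in SCLC and 135 in GSK (at least 135-fold higher, adjusted p = 1.23e-12, the authors' deposited table). Mmp10 reached 10.6, at least 10.6-fold above SCLC, and Mmp27 reached 9.28, at least 9.28-fold above it. Mmp28 went from 0.454 to 109, a 240-fold difference with a counting interval of 58.7 to 12909.

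The 5 members that fell in GSK were Mmp11, Mmp15, Mmp17, Mmp24 and Adamts17. Mmp24 fell from 4957 to 731 (-2.76 ± 0.33, adjusted p = 4.63e-15) and Mmp15 from 5731 to 1379 (-2.06 ± 0.31, adjusted p = 9.86e-10), both in the authors' deposited table. Mmp17 fell from 417 to 45.6 (-3.19 ± 0.55, adjusted p = 7.95e-08, the authors' deposited table), close to its level of 34.5 in Normal. Adamts17 fell from 416 to 124 (-1.74 ± 0.42, adjusted p = 0.000214, the authors' deposited table). Mmp11 fell from 371 to 100.4 (-1.89 ± 0.59, adjusted p = 0.00556, the authors' deposited table), and this call was lost when scaled to total counts (-1.38, adjusted p = 0.0518). Mmp16 was at 126 and 148 (0.23 ± 0.47, 95% interval -0.69 to 1.14, not called in the authors' deposited table). Mmp23 had 189 and 129 (-0.55 ± 0.44, 95% interval -1.42 to 0.32, not called in the authors' deposited table). Mmp7 had 5.94 and 0.361 and Mmp21 had 3.48 and 6.58, and neither was called. The summed level of the 6 neuroendocrine markers was 139888 in SCLC and 60465 in GSK in the same table, with 3 of 6 called lower and 1 higher, and its part in these falls was not tested.

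Of the inhibitors, 2 of 4 rose, where 21.6% of all genes tested were called higher. Timp1 rose from 4.26 to 144 (5.08 ± 0.56, adjusted p = 9.43e-18) and Timp3 from 220 to 1022 (2.22 ± 0.66, adjusted p = 0.00354), both in the authors' deposited table. Timp2 had 1173 and 2419 (1.04 ± 0.61, adjusted p = 0.177) and Timp4 had 9.64 and 22.8 (1.24 ± 0.74, adjusted p = 0.185), neither called in the authors' deposited table. Both passed the threshold when scaled to total counts, at log2 fold changes of 1.55 for Timp2 and 1.75 for Timp4. Timp3 in GSK, at 1022, stayed far under its 79765 in Normal, a gap between separately scaled tables that was not tested.

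Of 19 ADAMTS genes tested, 8 were higher in GSK and 1 was lower. The 47.4% called lay near the 37.1% of all genes tested. Among those not yet described, Adamts1 had 50.3 in SCLC and 2294 in GSK with the same wide error as before (5.51 ± 2.16, adjusted p = 0.0312, the authors' deposited table). Adamts9 rose from 5.82 to 221 (5.25 ± 0.61) and Adamts15 from 34.1 to 181 (2.41 ± 0.68), both in the authors' deposited table. Of the fibrillin-binding members, Adamts10 rose from 236 to 2211 (3.23 ± 0.50) and Adamts6 from 15.2 to 160 (3.40 ± 0.43), both in the authors' deposited table. Adamts12, which cuts cartilage oligomeric matrix protein, rose from 18.3 to 68.4 (1.90 ± 0.56) in the authors' deposited table. Adamts20 had 323 and 718 (1.15 ± 0.50, adjusted p = 0.0545, the authors' deposited table), just over the threshold, and passed when scaled to total counts, at 1.66 (adjusted p = 0.00355), when centred on the median, at 1.40 (adjusted p = 0.0168), and among genes with a mean of at least 10 (adjusted p = 0.0424). Adamts4, Adamts5, Adamts7, Adamts8, Adamts13, Adamts16, Adamts18 and Adamts19 were not called, with log2 fold changes from -1.91 to 1.06 in the authors' deposited table.

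To compare levels between genes, group means were divided by the exon length of each gene in GENCODE M21, which held all 46. That length is the union of the exons of all annotated transcripts. On that scale, in normalized counts per kb, the most abundant member in Normal was Timp3 at 9794, followed by Timp2 at 6196 and Mmp11 at 1419. In SCLC, Mmp15 at 987 and Mmp24 at 984 came first and Timp2 at 282 followed, and those 2 Mmp genes made up 87.1% of the summed Mmp level per kb. In GSK the order began with Mmp9 at 803, Timp2 at 621, Mmp19 at 578, Adamts1 at 433 and Mmp8 at 429, and Mmp15 and Mmp24 held 12.3% of the Mmp sum. The summed level of 4 Timp genes was 3.72 times that of 23 Mmp genes in Normal, 0.138 times in SCLC and 0.274 times in GSK. Without Timp3 these ratios were 1.48, 0.127 and 0.236. They are ratios of mRNA levels without an error, since no library values were analysed, and they say nothing of protein or of bound inhibitor. The ranks, sums and ratios depend on the union length, which can exceed that of the expressed transcript. It was 7237 bases for Mmp12, at 231 per kb in GSK, against 1801 for Mmp3 and 2425 for Mmp8.

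**Figure D5:**
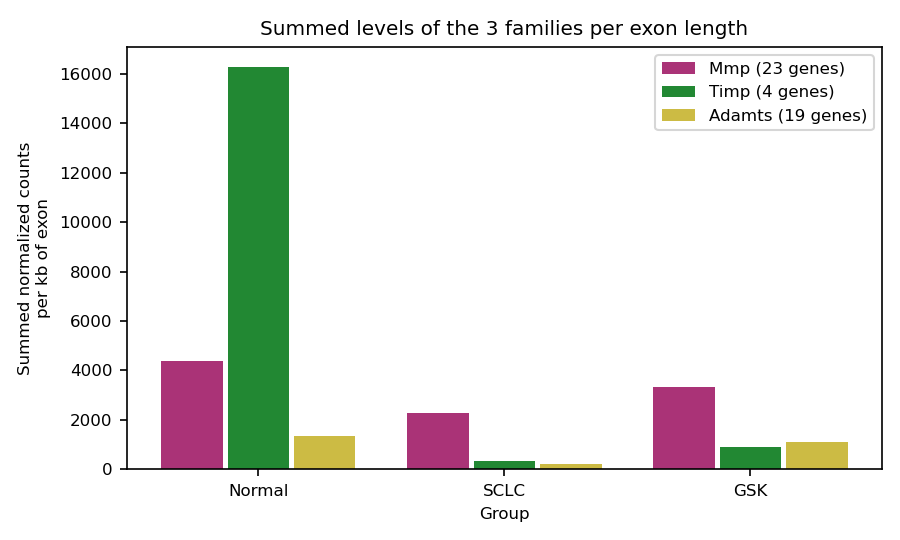
Summed implied group means per kb of exon (y axis, normalized counts per kb) for the Mmp, Timp and Adamts genes in Normal, SCLC and GSK, without error bars because no library values were analysed. The Timp bar is the tallest in Normal, at 16278, and stands at 313 in SCLC and 912 in GSK, under the Mmp bars of 2264 and 3334.

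Other genes of pericellular proteolysis were taken from lists, each described by genes from its 4 largest changes among those that passed. The counts of each list stand against the shares of all genes tested. These were 25.3% called higher and 25.1% lower in SCLC, and 21.6% higher and 15.5% lower in GSK. The lists are short, and no count was tested against those shares. In plasminogen activation, which generates plasmin, an activator of several pro-MMPs, 6 of 7 tested genes were lower in SCLC and 0 higher, and 7 of 8 were higher in GSK and 0 lower, in the authors' deposited table. The urokinase receptor gene Plaur was at 1142 in Normal and 67.4 in SCLC (-4.08 ± 0.66), and rose from 72.0 to 4497 in GSK (5.96 ± 0.66), in the authors' deposited table. Serpinb2, an inhibitor of plasminogen activators, was at least 87.1-fold lower in SCLC and at least 19.1-fold higher in GSK. Plat, the tissue plasminogen activator, fell from 280 to 21.4 in SCLC (-3.71 ± 0.72, the authors' deposited table). Plg, plasminogen itself, was at least 10.2-fold higher in GSK, where its mean was 10.2.

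Of 11 other regulators of MMP activity, 10 had an adjusted p in SCLC against Normal and all 10 were lower in the authors' deposited table. Lcn2, or lipocalin 2, which binds MMP9, fell from 39994 to 118 (-8.41 ± 0.88), and the matrix protein gene Thbs1 from 6972 to 137 (-5.67 ± 0.29), both in the authors' deposited table. Thbs2, whose product clears MMP2, went from 355 to about 0. The proprotein convertase gene Pcsk5 fell from 506 to 68.3 (-2.89 ± 0.71, the authors' deposited table). In GSK, 4 of 11 were higher and 2 lower in the authors' deposited table. Thbs1 rose from 148 to 7544 (5.67 ± 0.47) and Lcn2 from 126 to 2259 (4.16 ± 1.30), both in the authors' deposited table. Thbs2 reached 67.8 and Tfpi2, a serine protease inhibitor of the matrix, 8.14. The 2 that fell in GSK, named after their values were seen, were Bsg, or EMMPRIN, an inducer of MMPs (-0.95 ± 0.28), and the convertase gene Pcsk6 (-2.19 ± 0.37), in the authors' deposited table.

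Of 11 membrane ADAM genes, some of which encode proteases that shed cell surface proteins, 7 were lower and 2 higher in SCLC. In GSK, 5 were higher and 2 lower, both in the authors' deposited table. The 2 higher in SCLC, named after their values were seen, were Adam23 (2.18 ± 0.75) and Adam22 (1.44 ± 0.29), in the authors' deposited table. The 2 lower in GSK, named in the same way, were Adam23 (-2.27 ± 0.71) and Adam15 (-1.11 ± 0.40), in the authors' deposited table. Adam8, known from leukocytes, fell from 404 to 35.4 in SCLC (-3.51 ± 0.59) and rose from 37.9 to 2799 in GSK (6.21 ± 0.57), in the authors' deposited table. Adam28 fell from 225 to 2.26 in SCLC (-6.64 ± 0.76) and rose from 2.43 to 62.4 in GSK (4.69 ± 0.81), in the authors' deposited table. Adam19 had a wide error, at -5.47 ± 1.60 in SCLC and 4.23 ± 1.65 in GSK, in the authors' deposited table. Adam9 fell from 17088 to 2472 in SCLC (-2.79 ± 0.24), and Adam33 rose from 44.9 to 735 in GSK (4.03 ± 0.36), in the authors' deposited table.

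ADAMTS-like proteins resemble ADAMTS enzymes without the protease domain. In SCLC, 5 of 7 were lower and 0 higher, with Adamtsl5 falling from 906 to 16.1 (-5.81 ± 0.30), Adamtsl3 from 79.5 to 2.78 (-4.84 ± 0.85) and Adamtsl4 from 1331 to 83.8 (-3.99 ± 0.50), in the authors' deposited table. In GSK, 4 of 7 were higher and 1 lower, with Adamtsl3 rising from 2.99 to 85.6 (4.84 ± 0.85) and Adamtsl2 from 7.69 to 156 (4.34 ± 0.96), in the authors' deposited table. Among the astacin proteases, Bmp1, the procollagen C-proteinase, fell from 16558 to 1195 in SCLC (-3.79 ± 0.47), and Tll2 rose from 2.23 to 129 (5.85 ± 1.15), the 2 of 3 tested that were called in the authors' deposited table. In GSK, Tll2 fell from 138 to 3.59 (-5.26 ± 0.99) and Tll1 rose from 7.12 to 47.1 (2.73 ± 0.72), the 2 of 4 tested that were called in the authors' deposited table.

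The leukocyte, fibroblast and endothelial marker lists moved with the genes of these lists that rose in GSK, and their part was not tested. Not all these lists rose as a whole. From the SCLC control to GSK, summed levels went from 37553 to 31584 for the other regulators of MMP activity. They went from 2625 to 1758 for ADAMTS-like proteins and from 1431 to 1133 for astacin proteases. Plasminogen activation went from 2493 to 8915 and the membrane ADAM genes from 12497 to 17117.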

How the data were processed

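RNA-seq libraries of 9 mouse organoid samples had been made with a stranded mRNA kit and sequenced as paired reads of 150 bp, per the labels' protocols. STAR 2.7.9a and build GRCm39 are named per the submitters' processing notes. The sources used here name no counting tool, strand setting, annotation or tool for differential expression. The signal column the authors deposited is a mean of normalized counts over 6 libraries. The log2 fold change and its standard error, the score (their quotient) and the p-value columns are also the authors' deposited values, with 3 libraries against 3. Depth per library was not analysed here.

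Computed here were group means (for a mean m and ratio r between groups, 2m/(1 + r) and its complement), folds against the floor, levels per kb of exon (GENCODE M21, GRCm38, used for lengths and overlaps only), motif matches, and p-values of the alternatives (normal test and Benjamini-Hochberg adjustment, checked on simulated data). Tools were Python 3.11.15, numpy 2.4.6, pandas 2.3.3, scipy 1.17.1 and matplotlib 3.10.9. The control of the second table was taken as SCLC, since over 13634 genes its log2 ratio to the SCLC means of the first had an SD of 0.0084, against 2.02 for the other arm. The test was the authors' adjusted p under 0.05. Every member could be named, with statistics for those that passed with a group mean of at least 10 and for the Timp genes, Mmp2, Mmp9 and Mmp14; statistics of other members were added after their values were seen; other lists gave up to 4 genes of largest change among those that passed, of which 1 is not reported here. Members and lists were chosen with earlier results of these data known. Alternatives were a threshold of 0.01, a test against an absolute log2 change of 1, scaling to total counts, centring on the median of genes with a mean of 100, a minimum mean of 10, no filter, and a floor of 3 counts per library. Proteins were not analysed here.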

Additional observations from a re-analysis of the deposited data

How the results depend on the processing

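The counts of members called kept their size, within 1.5 times, under all 6 alternatives for SCLC against Normal (24 to 29 called) and for GSK against SCLC (21 to 29 called), except that members lower in GSK went from 5 to 3 in the test against an absolute log2 change of 1. That stricter test left 6340 of all genes called in SCLC against Normal (2949 higher, 3391 lower) and 3724 in GSK against SCLC (3161 higher, 563 lower), from 12453 and 10533. Scaled to total counts, genes lower in GSK went from 4404 to 1970, and 8738 were higher in place of 6129. The stricter test ended the calls of Adamts10, Adamts14, Adamts3, Adamts4 and Mmp15 in SCLC against Normal and of Adamts1, Adamts12, Adamts15, Adamts17, Mmp11 and Timp3 in GSK against SCLC. A threshold of 0.01 ended those of Adamts14 and Adamts4 in the first and of Adamts1 in the second. Mmp23, not called, changed sign when scaled to total counts in SCLC against Normal (log2 fold change of 0.025 in place of -0.06). A floor of 3 counts per library lowered the bounds, for Mmp8 to 81.7-fold in SCLC against Normal and 347-fold in GSK against SCLC. No paired analysis was possible because no column held a single library, and leaving out a replicate was not run for the same reason, so whether 1 library sets the wide error of Adamts1 was not tested.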

Other observations

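The genes of AP-1, the factor whose motif recurs in the Mmp array, and of the ETS family formed a list of 14. In SCLC against Normal 8 were lower and 2 higher, and in GSK against SCLC 8 were higher and 1 lower, in the authors' deposited table, where 50.4% and 37.1% of all genes tested were called. In SCLC, Etv5, an ETS factor of alveolar type II cells, fell from 24555 to 415 (-5.89 ± 0.61) and Fosl2 from 7666 to 159 (-5.59 ± 0.45), both in the authors' deposited table. Fosl1 fell from 61.1 to 5.36 (-3.51 ± 0.60) and the epithelial ETS factor gene Ehf from 934 to 83.7 (-3.48 ± 0.72), both in the authors' deposited table. In GSK the immediate early gene Fos rose from 82.0 to 16918 (7.69 ± 0.63) and Fosb from 67.7 to 14684 (7.76 ± 0.46), both in the authors' deposited table. Fosl2 rose from 171 to 8926 (5.71 ± 0.65) and Junb from 1483 to 23074 (3.96 ± 0.49), both in the authors' deposited table. The 1 that fell in GSK, named after its values were seen, was Elf3 (-1.91 ± 0.36, the authors' deposited table). The leukocyte, fibroblast and endothelial marker lists moved with the genes that rose in GSK, and their part was not tested.

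Among 15 tested cathepsins, the lysosomal proteases, and their cystatin inhibitors, 10 were lower and 3 higher in SCLC, and 9 were higher and 0 lower in GSK, in the authors' deposited table. Of all genes tested, 50.4% were called in SCLC and 37.1% in GSK. Ctss, of antigen-presenting cells, had 808 in Normal, about 0 in SCLC and 14395 in GSK, at least 14395-fold higher than in SCLC (adjusted p = 2.22e-38, the authors' deposited table). Ctsh, which takes part in surfactant protein processing, fell from 142856 to 168 in SCLC (-9.73 ± 0.34, the authors' deposited table). Ctsk, the collagen-cutting cathepsin of osteoclasts, rose from 42.4 to 3619 in GSK (6.42 ± 0.61, the authors' deposited table). The macrophage and neutrophil marker lists moved with these genes in GSK, and their part was not tested.

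Of the matrix substrates, 6 of 14 were lower and 4 higher in SCLC, and 8 of 15 were higher and 1 lower in GSK, in the authors' deposited table. The shares of all genes tested that were called were 50.4% in SCLC and 37.1% in GSK. Ncan, or neurocan, a proteoglycan of the brain, had 0.411 in Normal and 1416 in SCLC, a 3448-fold difference with a counting interval of 763 to 167837. Tnc, or tenascin C, fell from 1628 to 2.05 in SCLC (-9.63 ± 0.71), and the stromal proteoglycan gene Bgn from 1672 to 2.19 (-9.58 ± 1.63), both in the authors' deposited table. In GSK, Bgn rose from 2.32 to 2483 (10.06 ± 1.48) and Fn1, or fibronectin, from 184 to 18320 (6.64 ± 0.58), both in the authors' deposited table. Bcan, or brevican, a brain proteoglycan that ADAMTS enzymes cut, was the 1 that fell, from 353 to 3.28 (-6.75 ± 0.97, the authors' deposited table). The fibroblast list, which shares Dcn and Lum with this one, moved with the genes that rose in GSK, and its part was not tested.

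In GENCODE M21, 3 of the 4 Timp genes lie inside synapsin genes on the opposite strand: Timp1 in Syn1, Timp4 in Syn2 and Timp3 in Syn3. Synapsins coat synaptic vesicles. Syn1 rose from 23.4 in Normal to 2444 in SCLC (6.71 ± 0.57, the authors' deposited table) while Timp1 went from 254 to 3.93. Syn3 had 88.1 and 86.0 (-0.03 ± 0.50, not called in the authors' deposited table) while Timp3 went from 79765 to 205. Syn2 rose from 20.7 to 866 (5.39 ± 0.46, the authors' deposited table), and Timp4 had 2.93 and 8.90 and was not called. Timp1 shares 0 exon bases with Syn1, and Timp3 shares 21.3% of its exon bases with Syn3. These pairs were chosen after their values were seen.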
